A study of Rattus norvegicus with 46 samples.

Results

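The 10 genes of glucose and lactate transport, glycolysis and glycogen breakdown followed here in the rat left ventricle were Slc2a1, Slc2a4, Slc16a1, Hk1, Hk2, Pfkm, Aldoa, Pgam1, Eno3 and Pygb. The array annotation ties 20 probe sets to exactly 1 of these symbols, and all 20 of the 8740 probe sets measured were kept, so that 10 of 10 genes were found. No signal value entered the choice of probe sets for these genes, but the genes were chosen with earlier results of these data known. Among the genes, 2 had 1 probe set, 6 had 2 and 2 had 3, and a gene with several is represented by its brightest probe set, that of highest mean over the 46 arrays.

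The arrays were Affymetrix RGU34A chips hybridized with left ventricular RNA from male Wistar rats. Treated hearts came from aortic banding by a clip on the ascending aorta (pressure overload) for 6, 12, 16 and 30 weeks, from ligation of the left coronary artery (myocardial infarction) for 3 and 9 weeks, from an aorto-caval shunt (volume overload) for 3 and 8 weeks, and from angiotensin II or the thyroxin analogue Ditpa for 2 weeks. The 30-week banding group and both infarction groups held 4 arrays and the others 2, in total 26 hypertrophic arrays, and each was set against its own 2 sham arrays, or for both hormones against the same 2 vehicle arrays, 18 control arrays in all. Another 2 arrays held neonatal ventricles, harvested 3 days after birth. Infarct scars were cut away before extraction, and only large transmural infarcts were used. Angiotensin II was given by implanted pump; Ditpa was injected daily according to the methods but infused according to the sample labels, and the vehicle arrays are labelled as saline infusion. Every array held RNA pooled from several animals, so p-values here measure the spread between pools.

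Glucose enters the cardiac myocyte through GLUT1 (Slc2a1), which sits at the surface without insulin, and GLUT4 (Slc2a4), which insulin and contraction bring to the surface. Hexokinases trap it as glucose 6-phosphate, which is stored as glycogen or passes through phosphofructokinase, aldolase, phosphoglycerate mutase and enolase to pyruvate. Lactate crosses the membrane on the monocarboxylate transporter MCT1 (Slc16a1) and can be oxidized. The adult heart burns mainly fatty acids and the newborn heart relies more on glycolysis.

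The 4 genes whose brightest probe set changed on average (Slc16a1, Pfkm, Eno3 and Pygb) are shown by the 250 bases before their start, to give the sequence next to the genes that the results turn on. RefSeq promoters in the GRCr8 build were found for 9 of the 10 genes. Capitals mark ACGTG, the core of a hypoxia element, and GGGCGG, a GC box, on either strand. The E-box CACGTG holds ACGTG on both strands.
Slc16a1, chr2:194812410-194812659, plus strand: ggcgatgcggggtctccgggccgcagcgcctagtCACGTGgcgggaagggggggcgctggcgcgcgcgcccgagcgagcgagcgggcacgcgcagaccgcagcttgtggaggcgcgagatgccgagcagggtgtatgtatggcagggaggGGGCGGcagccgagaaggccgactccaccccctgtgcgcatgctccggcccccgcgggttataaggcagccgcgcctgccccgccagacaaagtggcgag
Pfkm, chr7:131113849-131114098, plus strand: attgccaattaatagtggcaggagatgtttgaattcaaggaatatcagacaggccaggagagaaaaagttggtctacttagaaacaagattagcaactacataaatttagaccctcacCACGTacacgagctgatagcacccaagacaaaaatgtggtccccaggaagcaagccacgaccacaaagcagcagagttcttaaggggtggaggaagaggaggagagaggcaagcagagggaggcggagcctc
Eno3, chr10:55868936-55869185, plus strand: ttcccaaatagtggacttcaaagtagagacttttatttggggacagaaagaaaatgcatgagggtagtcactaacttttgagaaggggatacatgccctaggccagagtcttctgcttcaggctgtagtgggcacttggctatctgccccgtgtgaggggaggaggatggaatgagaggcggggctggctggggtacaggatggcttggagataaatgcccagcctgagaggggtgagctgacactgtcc
Pygb, chr3:160071891-160072140, plus strand: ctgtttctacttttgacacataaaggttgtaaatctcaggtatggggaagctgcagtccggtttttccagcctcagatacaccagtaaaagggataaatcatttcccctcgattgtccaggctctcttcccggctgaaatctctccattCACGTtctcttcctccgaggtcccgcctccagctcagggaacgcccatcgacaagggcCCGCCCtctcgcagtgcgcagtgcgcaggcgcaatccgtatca
ACGTG stood in the windows of Slc16a1, Pfkm and Pygb, and in 16.6% of 33469 rat promoters of this length. CACGTG was present only in that of Slc16a1 among these 4 windows, against 5.59% of all promoters. GGGCGG was present in those of Slc16a1 and Pygb, against 30.5% of all, and the Eno3 window held none of these motifs. Among the genes whose brightest probe set was not called on average, Slc2a1, Hk1, Aldoa and Pgam1 held both ACGTG and GGGCGG in 1 window each, and Hk2 held neither. These 2 motifs were thus not particular to the genes that changed. These are matches of letters, since binding was not measured.

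The signal of an array is a linear intensity, and the median over all probe sets lay between 1003 and 1084 on every array. The 4 hormone arrays stood apart at the bright end: their 99th percentile was 17174 to 17587, against 22492 and 25836 in vehicle arrays, and the neonatal arrays had 19049 and 21635. All 9 measured cardiomyocyte markers had a mean signal above the floor of 16. The same held for every measured marker of the other cell types, skeletal muscle and adipocyte included, so it does not show expression. The median effect of the 9 cardiomyocyte markers was -0.11 log2 on average, -0.60 for angiotensin II and -0.58 for Ditpa, and none of the 9 was called in these comparisons. Summed erythrocyte marker signal was also lower, 25854 to 26563 for angiotensin II and 25662 to 26266 for Ditpa, against 32144 to 36433 in vehicle arrays. The median effect of the 3 measured erythrocyte markers went the other way, 0.10 log2 for angiotensin II and 0.04 for Ditpa. Summed fibroblast marker signal was lower in both as well, whereas that of endothelial markers was higher for angiotensin II. The median effect of the 6 fibroblast markers was only 0.06 log2 for angiotensin II and -0.04 for Ditpa, and none of the 6 was called in either. Collagens and other fibroblast markers were higher for banding (5 of 6) and infarction (5 of 6), and 2 of 4 macrophage markers were higher for infarction. Summed fibroblast marker signal was 49427 to 97014 in infarction arrays and 45839 to 55254 in their sham arrays. Fewer cells of a type and less RNA per cell cannot be told apart in whole ventricle. The part of these shifts, and of the difference at the bright end, in the results was not tested.

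On average over the 10 treated groups, the mRNA of the lactate transporter was higher and that of part of the glycolytic and glycogen machinery lower. The falls were not common to all groups. For angiotensin II the brightest probe sets of Pfkm, Eno3 and Pygb were at 0.00, 0.09 and 0.11 log2, and for Ditpa at 0.09, -1.25 and -0.03. By the brightest probe set Slc16a1 was higher on average, Pfkm, Eno3 and Pygb were lower, and the other 6 genes did not pass the test. Of all 20 probe sets 4 were higher and 3 lower, together 7, while 5.21% of all 8740 probe sets were called in this comparison. Since the genes were chosen with earlier results known, no count of their calls here tests enrichment over all probe sets. A probe set was called where limma's Benjamini-Hochberg adjusted p was below 0.05 over all 8740, and effects are log2 differences, treated minus own controls, given ± SE. The median effect of the 10 genes was 0.02 log2, against 0.01 for all probe sets. Without the hormone arrays 7 probe sets were called as well. With the 5 models weighted equally, so that each hormone counted as much as all banding groups, only 1 of the 7 calls held, that of rc_AI145680_s_at (Slc16a1). The share of all probe sets called was not counted for either setting, so these counts cannot be set against the array as a whole.

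**Figure D1:**
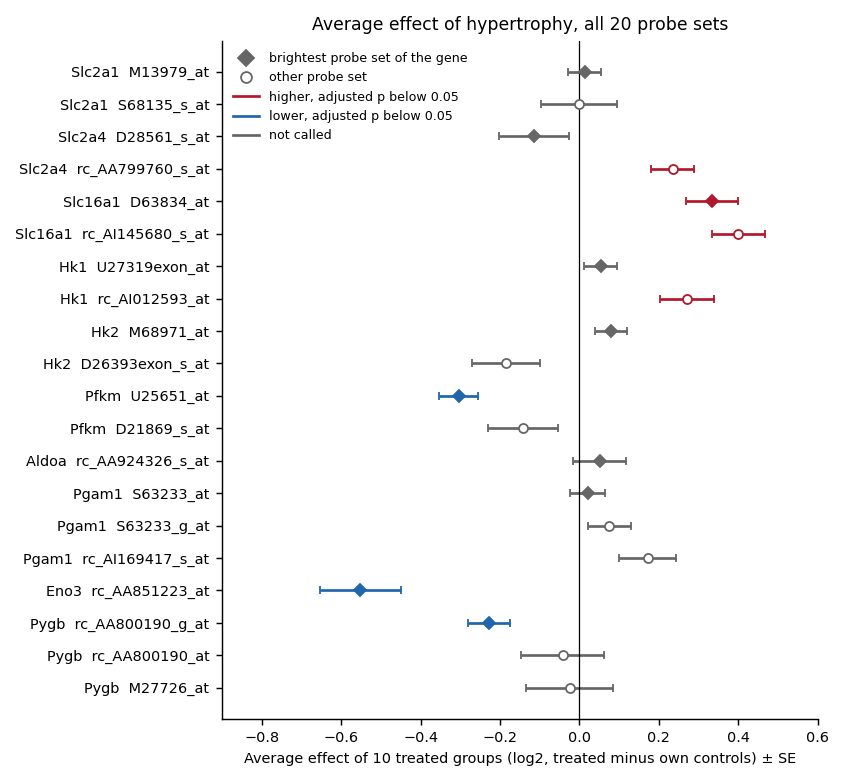
Average effect over the 10 treated groups (x axis, log2, treated minus own controls) for each of the 20 probe sets (y axis), with bars of 1 SE. The 2 probe sets of Slc16a1 lie together at 0.33 and 0.40, whereas the 2 of Slc2a4 (-0.12 and 0.24) and of Hk1 (0.05 and 0.27) lie apart.

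Slc16a1 was the member raised most widely. Its brightest probe set D63834_at was higher than the mean of its own controls in 24 of 26 hypertrophic arrays and the second, rc_AI145680_s_at, in 25. The average effects were 0.33 ± 0.0662 (limma adjusted p = 0.00134) and 0.40 ± 0.0658 (adjusted p = 0.00015), or 1.26 and 1.32 times the controls. It was also the only member to pass the exact two-sided rank sum test, which compares log2 ratios of the 26 hypertrophic arrays with those of the 18 controls, with Bonferroni-adjusted p of 0.00817 and 0.00108, so 2 of 20 probe sets passed, against 1.34% of all probe sets (1 without 9-week infarct sham replicate 5 or 6-week banding sham replicate 4, and 4 without angiotensin II replicate 1). In these log2 ratios the arrays of a group share controls, and each control is part of the mean it is divided by. The rank sum p-values assume an independence that the ratios lack. The 2 probe sets of Slc16a1 gave effects of 1 sign in 10 of 10 treated groups. Slc16a1, Pfkm and a glycogen phosphorylase stand in the study's own list of commonly regulated genes, chosen on these same arrays, so their direction here is not independent evidence. In the rank sum test here Pfkm U25651_at and Pygb rc_AA800190_g_at did not pass (Bonferroni-adjusted p = 0.128 and 0.251). The study's call of Pfkm was thus not repeated by this test.

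By single group the effect of Slc16a1 was largest at the late banding stage. D63834_at read 12871, 12772, 9328 and 8176 in the 30-week banding arrays, against 6375 and 5574 in their sham arrays. At 16 weeks it read 8557 and 7963, against 6940 and 6821 in sham arrays, and at 12 weeks 8065 and 7790, against 4980 and 6725. These 3 groups lay wholly above their sham arrays. At 6 weeks the groups overlapped, with 6742 and 6937 in banded hearts and 7367 and 4351 in sham hearts. The 30-week effect was 0.83 ± 0.179 (limma adjusted p = 0.0116) on this probe set and 0.74 ± 0.178 (0.0285) on the other, and neither call held without sham replicate 5 of that group, where 0 of the 20 probe sets were called.

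After infarction Slc16a1 read 7491, 7393, 8174 and 8672 at 3 weeks, against 5517 and 5575 in sham hearts. At 9 weeks it read 11636, 8475, 10284 and 7355, against 6286 and 7636. The 3-week arrays lay wholly above their controls and the 9-week arrays overlapped them by 1 array. The infarction effect was 0.47 ± 0.127 (limma adjusted p = 0.0453) and 0.60 ± 0.126 (0.00617) on the 2 probe sets, and the first of these calls was lost in 30 of 46 fits that left out 1 array, the second only without 3-week sham replicate 2 (0.063). In shunted hearts the signal was 9007 and 7485 at 3 weeks, against 7681 and 7689 in sham hearts, and 7212 and 8290 at 8 weeks, against 7413 and 7297. Both shunt groups overlapped their controls, and the effect of 0.08 ± 0.146 did not pass. Angiotensin II arrays read 7081 and 6997 and Ditpa arrays 6777 and 6382, against 6005 and 5773 in vehicle arrays, without overlap. Their effects of 0.26 ± 0.207 and 0.16 ± 0.207 did not pass the test (adjusted p = 1 in both cases).

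**Figure D2:**
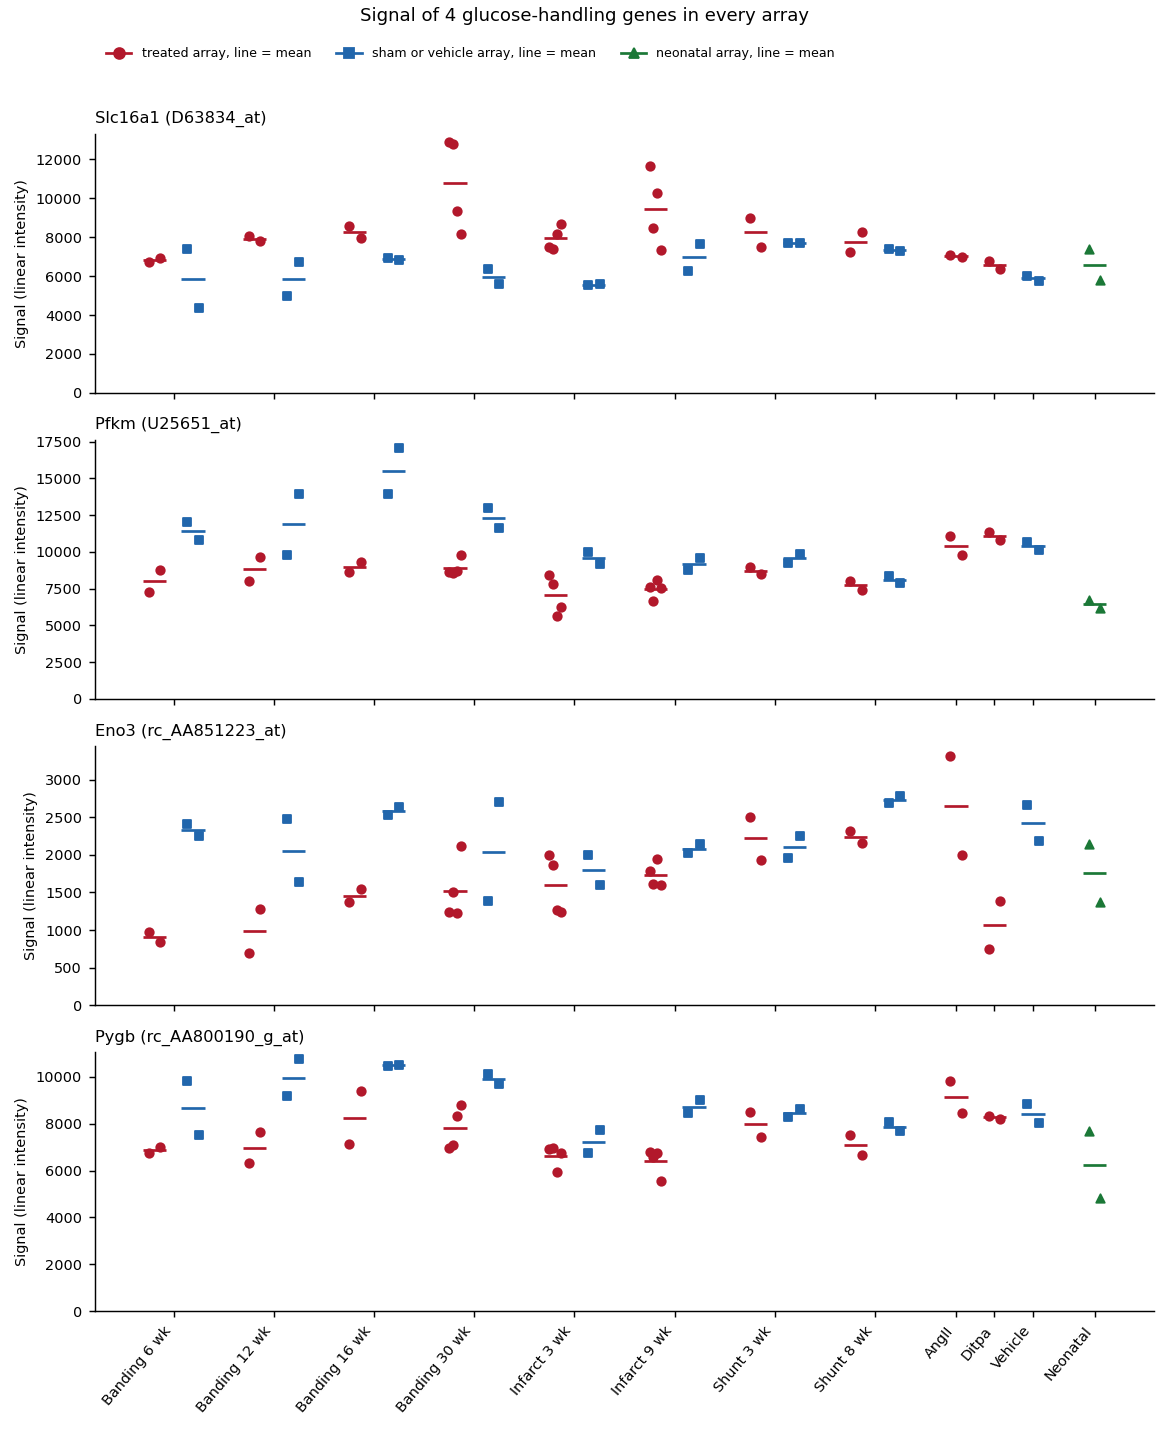
Linear signal (y axes, from 0) of the brightest probe set of Slc16a1, Pfkm, Eno3 and Pygb in every array, grouped along the x axis by model and time, with each treated group left of its sham or vehicle group and a line at each group mean. The banding arrays of Pfkm, Eno3 and Pygb sit mostly below their sham arrays, and Slc16a1 reaches 12871 at 30 weeks, against 6375 and 5574 in sham arrays.

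For glucose entry, neither brightest probe set passed the test. Slc2a1 (M13979_at) was higher than its controls in 15 of 26 arrays, with an average effect of 0.01 ± 0.0407, and its second probe set, S68135_s_at, in 12, with -0.00 ± 0.0959. Signals of M13979_at spanned 1274 to 2107 in hypertrophic arrays and 1365 to 1756 in control arrays. The 2 probe sets of Slc2a4 went apart. The brightest, D28561_s_at, was higher in 10 of 26 arrays (-0.12 ± 0.0882, limma adjusted p = 0.594), whereas rc_AA799760_s_at was higher in 20 (0.24 ± 0.054, adjusted p = 0.00595). In the 30-week banding arrays the second read 2246, 2188, 2007 and 2059, against 1053 and 1663 in sham arrays, while the first read 3263, 3094, 3271 and 4837, against 3696 and 5175. All 4 banded arrays were thus above both controls on 1 probe set, and 3 of them below both on the other. Over the 26 arrays the log2 ratios of the pair had a Pearson correlation of -0.29, a description over arrays that share controls, and the direction of Slc2a4 mRNA in hypertrophy was not settled by these probes.

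Hexokinase, the step that traps glucose, showed the same split. The brightest probe set of Hk1, U27319exon_at, read 5441, 5138, 5752 and 4910 in the 30-week banding arrays and 5836 and 5405 in sham arrays. The other, rc_AI012593_at, read 9097, 9648, 6491 and 9406, against 3428 and 5143. On the second all 4 banded arrays lay above both sham arrays, with an effect of 1.03 at that stage, while on the first 2 of the 4 lay below both and the groups overlapped. Over all treated groups the second was called at 0.27 ± 0.0675 (22 of 26 arrays, limma adjusted p = 0.0122), with a banding effect of 0.37 ± 0.102 whose call was lost in 7 of 46 fits that left out 1 array, while the first was at 0.05 ± 0.0414 (adjusted p = 0.597). Their ratios had a correlation of -0.53 over the 26 arrays. Hk2, the insulin-regulated form of muscle and heart, was at 0.08 ± 0.04 on M68971_at (20 of 26 arrays higher, adjusted p = 0.333) and -0.18 ± 0.086 on D26393exon_s_at (7 of 26 higher, 0.281).

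**Figure D3:**
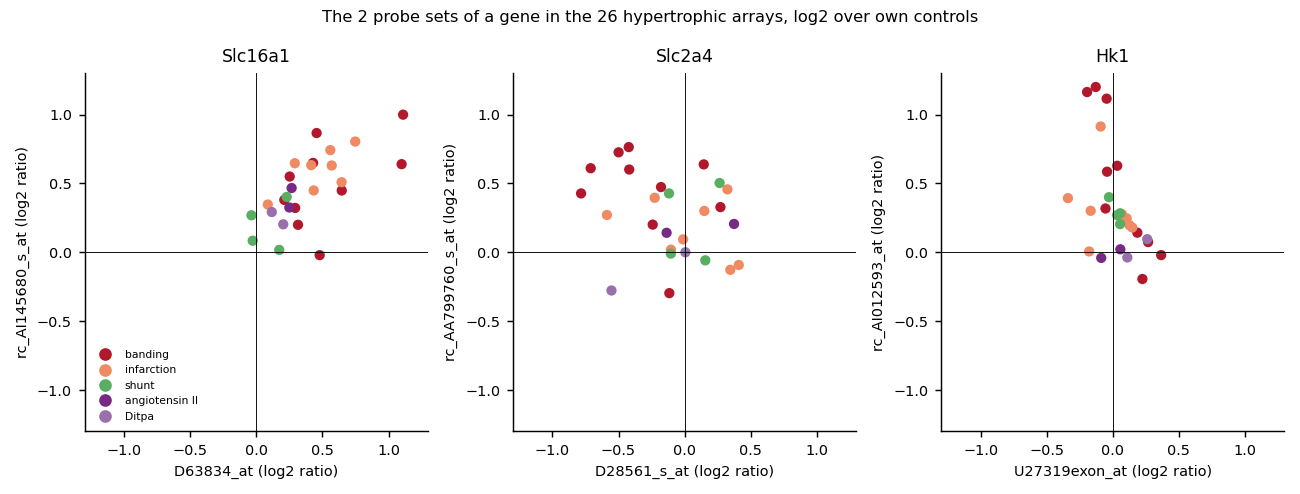
Log2 ratio over own controls of the second probe set (y axis) against the brightest one (x axis) for Slc16a1, Slc2a4 and Hk1, with 1 point for each of the 26 hypertrophic arrays, coloured by model. Points of Slc16a1 rise together (Pearson 0.64), whereas those of Slc2a4 (-0.29) and Hk1 (-0.53) do not.

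Pfkm, the muscle form of phosphofructokinase and the committed step of glycolysis, was lower in 23 of 26 hypertrophic arrays on U25651_at, with an average effect of -0.30 ± 0.05 (limma adjusted p = 0.000149). The fall was seen in pressure overload and infarction. In banded hearts the probe set read 7295 and 8742 at 6 weeks, against 12065 and 10815 in sham hearts, and 7990 and 9631 at 12 weeks, against 9813 and 13916. At 16 weeks it read 8601 and 9328, against 13947 and 17030, and at 30 weeks 8604, 8582, 8725 and 9768, against 12972 and 11605. All 10 banded arrays were below both of their sham arrays, with banded signals of 7295 to 9768 and sham signals of 9813 to 17030. The banding effect was -0.54 ± 0.0756 (adjusted p = 1.07e-05), or 0.686 times sham, and the largest single effect, -0.78 at 16 weeks (0.0129), was set against the highest sham pair of the series and was not called without either banded array or without sham replicate 4.

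Infarcted hearts had Pfkm signals of 8435, 7841, 5642 and 6238 at 3 weeks, against 9982 and 9209 in sham hearts. At 9 weeks they had 7614, 6681, 8117 and 7550, against 8775 and 9560. Neither group overlapped its controls, and the effect was -0.38 ± 0.0957 (limma adjusted p = 0.0264), a call lost in 7 of the 46 fits that left out 1 array. Shunt gave 8944 and 8491 at 3 weeks, against 9267 and 9846 in sham hearts, and 8054 and 7407 at 8 weeks, against 8368 and 7853, an effect of -0.10 ± 0.11. In hormone-treated hearts the values lay near or above those of vehicle hearts. Angiotensin II arrays read 11066 and 9800 and Ditpa arrays 11322 and 10795, against 10663 and 10121 in vehicle arrays, giving 0.00 ± 0.156 and 0.09 ± 0.156. The dimmer probe set of Pfkm, D21869_s_at, was at -0.14 ± 0.0885 on average and was not called (adjusted p = 0.477), although its ratios followed those of the first over the 26 arrays (Pearson 0.77).

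Aldoa and Pgam1, which act between phosphofructokinase and enolase, did not pass on average on any probe set. Aldoa, the muscle aldolase, was at 0.05 ± 0.0659 and spanned 8483 to 21171 in hypertrophic arrays and 8751 to 23890 in control arrays. In infarction it read 14397, 12697, 12646 and 8483 at 3 weeks, against 14567 and 14566 in sham hearts, and 15100, 13174, 16247 and 16277 at 9 weeks, against 9503 and 10584. The early arrays lay below and the late ones above their controls, a difference between the times of 0.89 ± 0.252 that did not pass (limma adjusted p = 0.548). The 3 probe sets of Pgam1, the mutase form of most tissues, were at 0.02 ± 0.0444, 0.07 ± 0.0542 and 0.17 ± 0.0727, the last of these (rc_AI169417_s_at) higher in 20 of 26 arrays (adjusted p = 0.212).

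Eno3, the muscle-specific beta-enolase, had the largest average effect among the brightest probe sets of the 10 genes, -0.55 ± 0.102 (limma adjusted p = 0.000602), and was lower in 21 of 26 arrays. Among the models it was called for pressure overload alone. At 6 weeks of banding Eno3 read 979 and 842, against 2414 and 2247 in sham hearts, and at 12 weeks 692 and 1284, against 2473 and 1640. At 16 weeks it read 1373 and 1540, against 2530 and 2635, and at 30 weeks 1245, 1500, 1228 and 2116, against 1388 and 2704. The first 3 groups lay wholly below their sham arrays and the last overlapped them. Effects were -1.36 ± 0.318 at 6 weeks (adjusted p = 0.0312), -1.10 ± 0.318 at 12, -0.83 ± 0.318 at 16 and -0.38 ± 0.276 at 30 weeks. The banding effect was -0.92 ± 0.154 (0.000185), or 0.53 times sham, and the difference of 0.97 ± 0.421 between 30 and 6 weeks did not pass (0.643). The 6-week call was lost without any 1 of its 4 arrays.

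Outside banding Eno3 varied. After infarction it read 2003, 1867, 1269 and 1240 at 3 weeks, against 2004 and 1598 in sham hearts, and 1788, 1619, 1946 and 1605 at 9 weeks, against 2020 and 2148. Shunt gave 2508 and 1936 at 3 weeks, against 1959 and 2252 in sham hearts, and 2316 and 2156 at 8 weeks, against 2689 and 2781. The 3-week arrays of both models overlapped their controls and the later ones lay below, and the infarction and shunt effects of -0.23 ± 0.195 and -0.11 ± 0.225 did not pass. Angiotensin II arrays read 3318 and 1994 and Ditpa arrays 744 and 1390, against 2671 and 2187 in vehicle arrays, so that the angiotensin II arrays straddled the vehicle values and both Ditpa arrays lay below them. The Ditpa effect of -1.25 ± 0.318 had an adjusted p of 0.344, and the difference of angiotensin II minus Ditpa, 1.34 ± 0.318, one of 0.502 (limma), with 2 arrays in each group.

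Pygb, the glycogen phosphorylase first named from brain, which releases glucose 1-phosphate from glycogen, was lower in 23 of 26 arrays on rc_AA800190_g_at (-0.23 ± 0.0531, limma adjusted p = 0.00686). In banded hearts it read 6750 and 6994 at 6 weeks, against 9811 and 7532 in sham hearts, and 6310 and 7647 at 12 weeks, against 9169 and 10757. At 16 weeks it read 7142 and 9384, against 10452 and 10527, and at 30 weeks 6969, 7089, 8323 and 8816, against 10143 and 9684. All 10 banded arrays lay below both of their sham arrays (-0.39 ± 0.0803, adjusted p = 0.00236). After infarction the arrays read 6909, 6976, 5941 and 6737 at 3 weeks, against 6736 and 7751 in sham hearts, and 6798, 6593, 6758 and 5543 at 9 weeks, against 8473 and 8998. Only the 9-week arrays lay wholly below their controls, and the infarction effect of -0.29 ± 0.102 was not called (0.188). Shunt arrays read 8508 and 7455 at 3 weeks, against 8284 and 8644, and 7502 and 6676 at 8 weeks, against 8069 and 7678, and the effect was -0.12 ± 0.117. Angiotensin II arrays read 9806 and 8452 and Ditpa arrays 8319 and 8220, against 8824 and 8034 in vehicle arrays, both with overlap. The other probe sets of Pygb, at -0.04 ± 0.104 and -0.02 ± 0.11, were not called, and with the mean of its 3 probe sets the gene was at -0.10 ± 0.0698 (0.55).

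By model, banding carried most of the calls, but it was also the model with the most arrays. The SE of Pfkm U25651_at, for example, was 0.0756 for banding, 0.0957 for infarction, 0.11 for shunt and 0.156 for each hormone. The counts below therefore do not measure how far the models differ. Of the 20 probe sets 7 were called for banding (4 higher, 3 lower), against 5.26% of all probe sets, and 3 for infarction (both of Slc16a1 and Pfkm U25651_at), against 1.96%. The infarction count was 0 without 3-week sham replicate 2 and 1 without any of 3-week sham replicate 1, 3-week infarct replicates 5 and 6, or the 9-week sham arrays. For shunt 0 of 20 were called (limma; 0 at an unadjusted p under 0.05), against 0.0458% of all. For angiotensin II and Ditpa 0 were called, against 0% of all, with 0 and 1 (Eno3) at an unadjusted p under 0.05. The effects of the 5 models differed for 0 of 20 probe sets by limma's moderated F test, against 0.275% of all, with 2 at an unadjusted p under 0.05, Eno3 (adjusted p = 0.0657) and Pfkm U25651_at (0.266). An ANOVA on the 26 log2 ratios, with Benjamini-Hochberg adjustment in place of the Bonferroni correction of the methods, called 1 of 20, Pfkm U25651_at (adjusted p = 0.00934), against 2.55% of all. With Bonferroni correction it called 0 of 20 (Pfkm at 0.812), against 0.343% of all. Surgical minus hormone effects were called for 0 of 20 (2 unadjusted), against 0.32% of all, among them Pfkm at -0.44 ± 0.145 (adjusted p = 0.273). The F count became 1 in 7 of the 46 fits that left out 1 array.

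**Figure D4:**
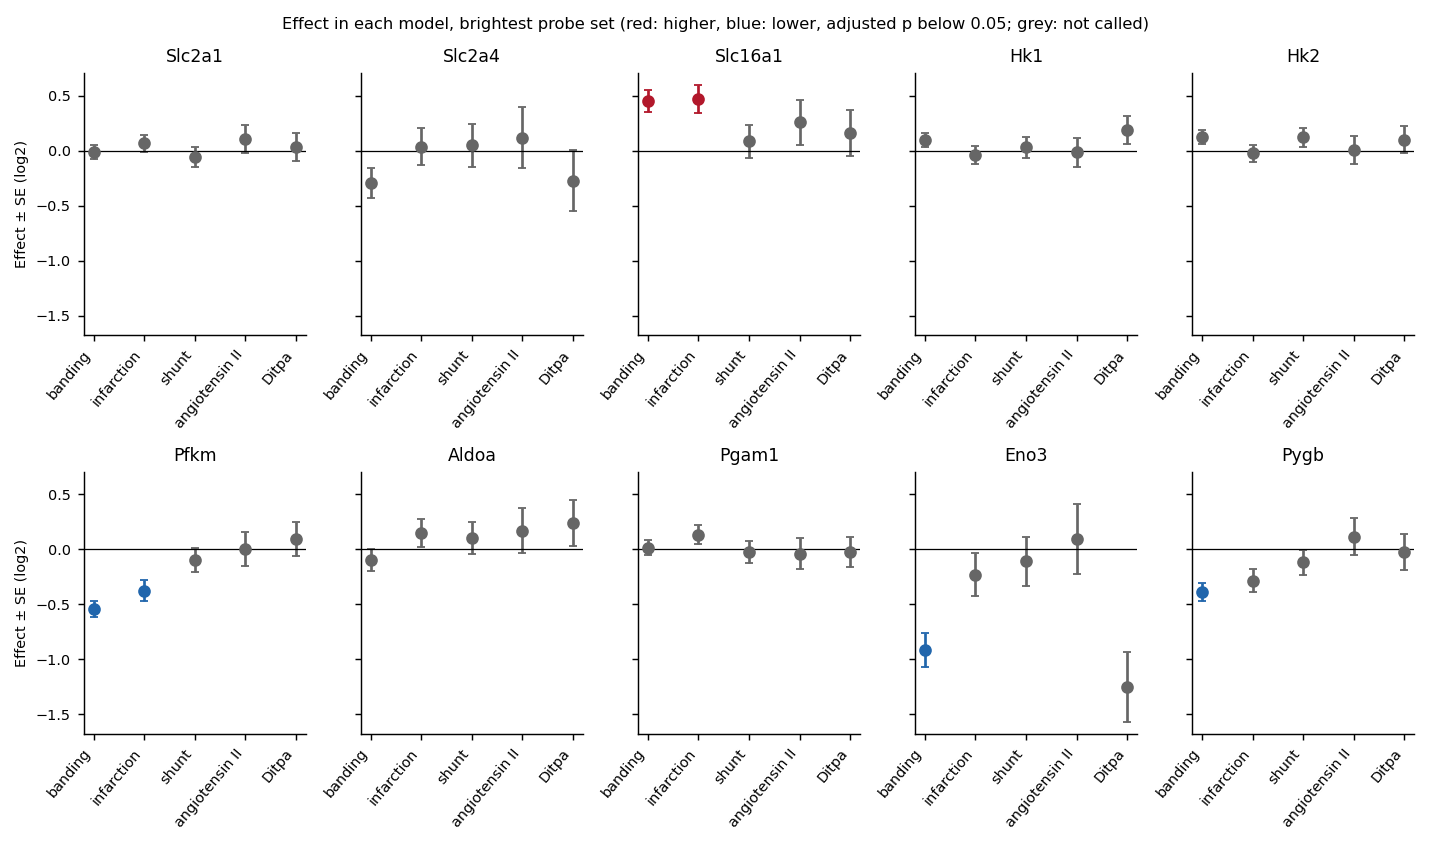
Effect in each model (y axes, log2 ± 1 SE, treated minus own controls) of the brightest probe set of the 10 genes, with the 5 models along the x axes. Slc16a1 is called higher for banding and infarction, Pfkm lower for both, and Eno3 (-0.92) and Pygb (-0.39) lower for banding alone.

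By single treated group the counts of called probe sets were 1 at 6 weeks of banding (Eno3; 0.652% of all probe sets were called), 0 at 12 weeks (0.355%; 5 at an unadjusted p under 0.05, and 2 called without banded replicate 2), 1 at 16 weeks (Pfkm; 0.709%) and 4 at 30 weeks (both of Slc16a1, Hk1 rc_AI012593_at and Slc2a4 rc_AA799760_s_at; 1.12%, and 2 called without banded replicate 1 or 2). None of the 20 was called at 3 weeks (0.206% of all) or 9 weeks (1.92%) of infarction, or at 3 weeks (0%) or 8 weeks (0.0458%) of shunt, where limma gave 4, 6, 1 and 0 at an unadjusted p under 0.05. Late minus early effects were called for 0 members in banding (0.0114% of all; 2 unadjusted), infarction (0%; 1) and shunt (0%; 1), and angiotensin II minus Ditpa for 0 (0.0114%; 1 unadjusted). The 16-week banding arrays were unusual in the number of probe sets that did not overlap their controls. There 14 of 20 lay below both sham arrays and 4 above, while 24.1% and 26.8% of all probe sets did so. Both sham arrays at 16 weeks had the highest Pfkm signals of the control arrays, 13947 and 17030, and the highest Slc2a4 signals, 5822 and 5929 on D28561_s_at.

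For the 4 genes called on average, the genes of most similar profile over the 26 log2 ratios were found, by Pearson correlation of the brightest probe sets. Pfkm ran closest to Cpt2 (0.89), a carnitine palmitoyltransferase of fatty acid import into mitochondria, and Dhrs7c (0.88), a dehydrogenase of striated muscle. Slc16a1 ran closest to Ezr (0.86), a linker of membrane and actin, and Traf2 (0.84), an adaptor of TNF receptors. Eno3 came nearest to Ndufs4 (0.76), a subunit of respiratory complex I, and Rab3b (0.75), a vesicle GTPase, and Pygb to Txn2 (0.73), the mitochondrial thioredoxin, and Got1 (0.71), the cytosolic aspartate aminotransferase. Arrays of 1 group share controls in these ratios, so the values describe likeness and carry no test.

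Of 52 other genes of glucose handling on a list drawn up for this comparison, 37 were measured and 1 passed on average (limma), with a median of -0.01 log2, against 0.01 for all probe sets. This was Gyg1, glycogenin, the protein primer of glycogen, which was higher at 0.29 ± 0.0621 (adjusted p = 0.00309; 23 of 26 arrays) and at 0.46 ± 0.0939 for banding (0.00185). For infarction 1 was higher, Eno1, the ubiquitous enolase, at 0.51 ± 0.104 (0.00441). Its infarction effect stood beside that of Eno3, -0.23 ± 0.195. The muscle glycogen phosphorylase Pygm was at -0.14 ± 0.054 on average (0.148), and the muscle mutase Pgam2 at -0.16 ± 0.0723 (0.233). Pdk4, the kinase that closes pyruvate dehydrogenase, was at 1.12 ± 0.363 for angiotensin II and 1.20 ± 0.363 for Ditpa, without passing (0.581 and 0.43).

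In neonatal ventricles, set against the 18 adult control arrays, Slc2a1 was higher on both probe sets, and Slc2a4, Hk2 and Pfkm were lower on 1 of their 2 probe sets. Of the 20 probe sets 4 were higher and 4 lower, together 8 called, against 32.6% of all 8740 probe sets, so the share among these genes was near that of the array as a whole. The adult controls are the arrays also used in the hypertrophy comparisons. Between neonatal and adult arrays 7 of 9 cardiomyocyte markers were lower and 1 higher. Of 6 fibroblast markers 4 were higher and 1 lower, and of 4 macrophage markers 2 were lower. The part of these shifts in the values below was not tested. Slc2a1 read 2183 and 2378 in neonatal arrays, against 1365 to 1756 (median 1519) in adult controls on M13979_at, and 1250 and 1757, against 267 to 823 (median 539), on S68135_s_at. Neither overlapped, and the differences were 0.59 ± 0.0949 (limma adjusted p = 1.36e-05) and 1.44 ± 0.223 (7.1e-06). Slc2a4 on D28561_s_at read 1800 and 1577, against 2431 to 5929 (median 3761), a difference of -1.19 ± 0.205 (3.5e-05), or 0.439 times adult. Its other probe set, with 2015 and 1576 against 1053 to 2202, was at 0.12 ± 0.126 (0.498).

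Hexokinase probe sets disagreed here too. Hk2 on D26393exon_s_at read 500 and 493 in neonatal arrays, against 881 to 2822 (median 1615) in adult controls, a difference of -1.73 ± 0.2 (limma adjusted p = 4.65e-08). On M68971_at it read 3145 and 3118, against 2089 to 3302, and the difference of 0.16 ± 0.0931 did not pass (0.199). Hk1 on rc_AI012593_at read 7962 and 8275, against 3428 to 6565 (median 4810), at 0.72 ± 0.157 (0.000597), and on U27319exon_at it was at 0.03 ± 0.0965. Pfkm U25651_at read 6748 and 6190, against 7853 to 17030 (median 10051), without overlap (-0.72 ± 0.116, 1.26e-05), while D21869_s_at was at 0.12 ± 0.206. The third probe set of Pgam1 was higher at 0.60 ± 0.169 (0.00627) and Pygb on rc_AA800190_g_at lower at -0.53 ± 0.124 (0.00118), with 7685 and 4818, against 6736 to 10757, and both calls were lost without neonatal replicate 2. Against the 2 vehicle arrays only, 3 of these calls were lost, with Hk1 rc_AI012593_at at 0.39 (limma adjusted p = 0.235), Pgam1 rc_AI169417_s_at at 0.18 (0.656) and Pygb rc_AA800190_g_at at -0.47 (0.0557). Slc16a1 (0.04 ± 0.154), Aldoa (0.26 ± 0.153) and Eno3 (-0.36 ± 0.237) were not called.

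**Figure D5:**
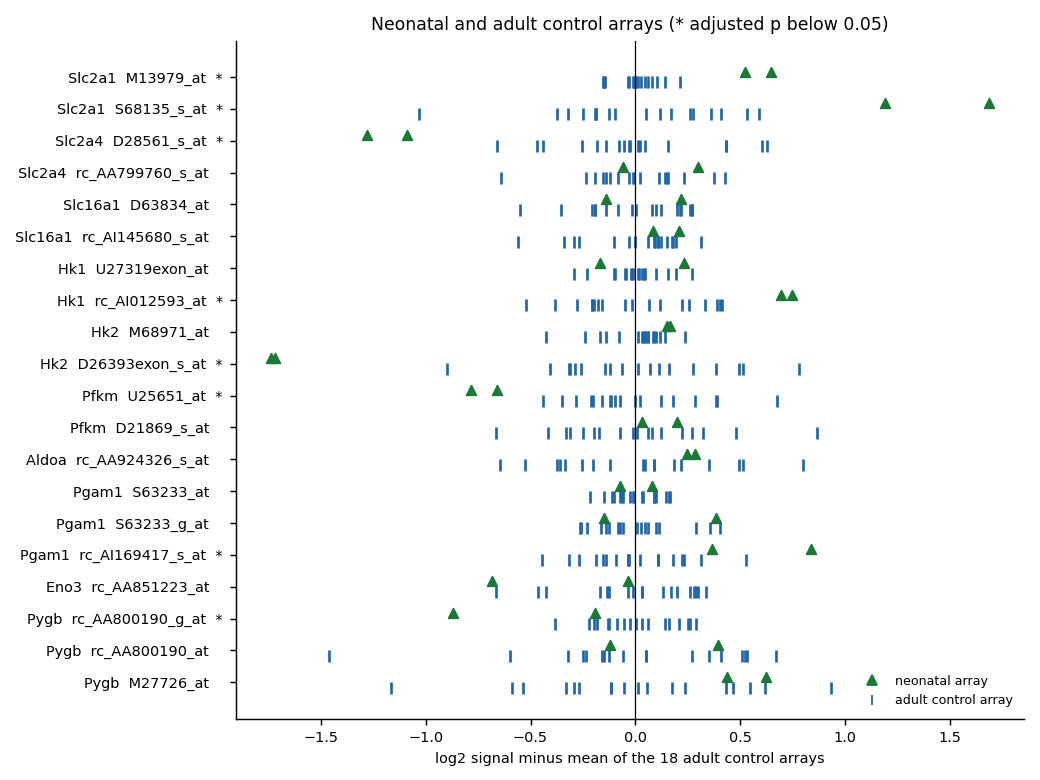
Log2 signal of the 2 neonatal arrays (triangles) and the 18 adult control arrays (ticks), each minus the mean of the adult controls (x axis), for the 20 probe sets (y axis), with a star where the limma adjusted p was below 0.05. Both neonatal arrays lie above all adult controls for Slc2a1 and below all of them for Slc2a4 D28561_s_at, Hk2 D26393exon_s_at and Pfkm U25651_at.

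Of the 37 other measured genes of glucose handling, 6 were higher and 15 lower in neonatal ventricles, against 1357 higher and 1489 lower of all 8740 probe sets (together 32.6%), with a median of -0.18 log2, against -0.07 for all probe sets. Higher were Gyg1 (1.12 ± 0.145), the platelet-type phosphofructokinase Pfkp (1.02 ± 0.102), the lactate exporter MCT4 gene Slc16a3 (0.79 ± 0.0974), Eno1 (0.60 ± 0.127), Pgm1 (0.27) and Pfkl (0.25). Among the lower ones, 3 were pyruvate dehydrogenase kinases, Pdk1 at -2.19 ± 0.222 (limma adjusted p = 3.21e-09), Pdk2 at -1.09 ± 0.14 and Pdk4 at -0.94 ± 0.271. Also lower were the muscle forms Pgam2 (-0.84 ± 0.168) and Pygm (-0.45 ± 0.126), and Ldhb (-0.68 ± 0.119), the heart subunit of lactate dehydrogenase.

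The balance of isoforms was tested as a log2 ratio of brightest probe sets within each array. The Slc2a1 over Slc2a4 ratio was 0.28 and 0.59 in neonatal arrays, against -1.88 to -0.54 (median -1.32) in the 18 adult controls, a difference of 1.77 with no overlap (exact permutation test over 190 arrangements, two-sided p = 0.00526, the smallest they can give, 0.0105 after adjustment over 2 ratios). In hypertrophy it differed by 0.13 on average, higher in 17 of 26 arrays (permutation test with 100000 draws, two-sided, adjusted p = 0.347). The Hk1 over Hk2 ratio differed by -0.13 in neonatal arrays (exact permutation test, adjusted p = 0.305) and by -0.03 in hypertrophy (higher in 12 of 26 arrays, permutation test, adjusted p = 0.481). Taking the mean of all probe sets of each gene instead turned the Hk1 over Hk2 differences to 1.16 in neonatal arrays and 0.21 in hypertrophy, so no direction is given for this ratio.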

How the data were processed

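RNA of the left ventricle, pooled within groups, was hybridized to 46 arrays. The authors normalized the arrays by the invariant rank method of dChip and computed perfect-match model values, and the deposited values are these linear intensities for 8740 probe sets. The GEO platform annotation gave 1 symbol to 7006 probe sets, several to 308 and none to 1426. Genes on the chip with near-identical copies cannot be separated, and the number of arrays limits the precision.

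Here intensities were floored at 16 and taken to log2. A limma model (limma 3.58.1, R 4.3.3) with a mean for each of the 20 groups was fitted to all 8740 probe sets, with Benjamini-Hochberg adjustment over all of them. The average effect is the mean of the 10 treated-minus-control differences. The exact rank sum test with Bonferroni correction follows the methods of the study, and so does the ANOVA, except that its main adjustment here was Benjamini-Hochberg. The Bonferroni correction of the ANOVA was added after seeing the data. Both tests treat the log2 ratios as independent, although arrays of a group share controls. Isoform ratios were tested by permutation, within time points for hypertrophy and over all arrangements of the 2 neonatal arrays among the neonatal and adult control arrays. The limma and permutation steps were tested on simulated data. Array weights, other floors (1 and 64), a filter at a mean of 100, quantile normalization and leaving out arrays were tried as alternatives. Of these, only the array weights had the share of all probe sets called counted. All members and their probe sets are named. Genes of like profile are the 2 nearest for each member called on average. The members and gene lists were chosen with earlier results of these data known.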

Additional observations from a re-analysis of the deposited data

Results flagged for a closer look

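In the 3 groups of 4 arrays, 8 of 60 combinations of probe set and group held 1 array far from the other 3 by Dixon's ratio at its 95% limit, which chance gives about 1 time in 20 for a single test. The ratio was not computed for the other probe sets, and the 60 combinations share arrays, so the count does not show an excess among these genes. At 30 weeks of banding, replicate 4 was the high one for Slc2a4 D28561_s_at (4837, nearest 3271) and Pfkm U25651_at (9768, nearest 8725). This array had the lowest 99th percentile of its group, 22539, and was the highest of its group for 11 of 20 member probe sets and for 29.7% of all. Replicate 3 was the low one for Hk1 rc_AI012593_at (6491, nearest 9097). At 3 weeks of infarction, Pgam1 S63233_at was low in replicate 5 (9834, nearest 12837) and Pgam1 rc_AI169417_s_at high in replicate 6 (5810, nearest 4694). At 9 weeks of infarction, replicate 1 was high for Pgam1 S63233_at (16117, nearest 13029) and S63233_g_at (9172, nearest 6790), which come from the same source sequence, and replicate 4 was low for Pygb rc_AA800190_g_at (5543, nearest 6593). No explanation of these arrays was tested.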

How the results depend on the processing

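The count of 7 called probe sets for the average effect was 7 in every fit that left out 1 array, and each of the 20 probe sets kept its call there. It was 2 with the exact rank sum test and 1 with the 5 models weighted equally, where limma adjusted p was 0.0984 for Slc16a1 D63834_at, 0.191 for Pfkm, 0.0621 for Eno3 and 0.517 for Pygb. The share of all probe sets called was not counted for the equal weighting, quantile normalization or the comparison with the vehicle arrays only. Nor was it counted for the fits that left out 1 array, so none of these counts can be set against the array as a whole. With array weights 1 of 20 probe sets was called for Ditpa (Eno3; 1.74% of all probe sets), 2 at 16 weeks of banding (2.4%), 1 and 3 at 3 and 9 weeks of infarction (0.973% and 5.45%), 1 for surgical minus hormone (2.76%), 1 for angiotensin II minus Ditpa (0.0343%) and 2 for the difference between models (2.48%), and Hk1 rc_AI012593_at lost its banding call (limma adjusted p = 0.0753). The difference between models was called for 1 by the ANOVA with Benjamini-Hochberg adjustment and for 0 with Bonferroni correction. After quantile normalization 1 was called at 9 weeks of infarction, and for infarction as a whole Slc16a1 D63834_at lost its call (adjusted p = 0.12) and Pygb rc_AA800190_g_at gained one (0.0337). Against the 2 vehicle arrays only, 5 of the 8 neonatal calls were made, without those of Hk1 rc_AI012593_at, Pgam1 rc_AI169417_s_at and Pygb rc_AA800190_g_at. The means of all probe sets reversed the Hk1 over Hk2 difference to 0.2147 in hypertrophy (adjusted p = 0.00058) and 1.1594 in neonatal arrays (permutation tests), raised Hk1 to a call at 0.16 (limma adjusted p = 0.00766) and ended that of Pygb. Without 1 array at a time, counts ranged from 6 to 8 for banding, 0 to 3 for infarction, 6 to 9 for neonatal, 1 to 4 for the rank sum test, 0 to 1 for the model difference (1 without sham replicate 4 at 6 or 12 weeks, sham replicate 5 or banded replicate 4 at 30 weeks, banded replicate 2 at 12 weeks, angiotensin II replicate 2 or Ditpa replicate 2), 0 to 1 at 6 and 16 weeks of banding, 0 to 2 at 12 weeks, 0 to 5 at 30 weeks, 0 to 1 at 9 weeks of infarction (1 without its replicate 4, 3-week infarct replicate 6 or any array of 12-week banding) and 0 to 1 for angiotensin II minus Ditpa (1 without Ditpa replicate 2). The Slc2a1 over Slc2a4 difference ranged from 1.6155 to 1.9296 for neonatal arrays, where 1 remaining neonatal array cannot pass (adjusted p = 0.105), and from 0.0804 to 0.1765 in hypertrophy. That of Hk1 over Hk2 ranged from -0.0567 to 0.0051 in hypertrophy and from -0.3204 to 0.0645 in neonatal arrays. The cause of these changes was not tested. A floor of 1 or 64 or a filter at a mean of 100 changed none of these counts or of the member calls. The lowest adult control signal of a member was 267 and the lowest member mean 610, so these settings could hardly touch the members' own values.

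With a replicate block for the numbers of the vehicle, angiotensin II and Ditpa arrays, 0 and 0 probe sets were called for angiotensin II and Ditpa, as without it. Deviations of same-numbered arrays in these groups had correlations of -0.04, -0.06 and -0.08 over probe sets. With so few arrays in a group this cannot exclude a pairing, and the surgical groups were not examined. The numbers were used here only to name the arrays.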

Other observations

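Within the 9-week infarction group, replicate 1 gave the highest signal of the 4 arrays for 11 of 20 member probe sets, while it did so for 29.9% of all probe sets on the array. It held the top values of Slc16a1 D63834_at (11636), Hk1 rc_AI012593_at (7963) and all 3 probe sets of Pgam1 (16117, 9172 and 7891). Replicate 4 of that group gave the lowest signal for 8 of 20 and for 25.4% of all.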
